A study of Rattus norvegicus with 8 samples.

Results

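Collagens are the secreted and membrane proteins whose chains wind into triple helices. The 10 collagen genes described here were Col1a1, Col1a2, Col5a3, Col11a2, Col4a1, Col4a2, Col4a4, Col6a2, Col13a1 and Col14a1. They were picked because several of them stood high or low on these same arrays, with common collagens set beside them. The values below therefore describe them, and limma calls on them are not read as a test. Their probes were found through the RefSeq transcript that each probe names: 9 of the 10 genes had a probe, on 12 of the 45598 gene probes, and Col4a2 is not analysed here. Of those 12 probes, 11 passed the filter on dim signal, and all 9 genes kept at least 1 probe.

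Retinas of newborn (P0) Lister hooded rats were electroporated and kept as explants for 39 h, and the transfected, GFP-positive cells were then sorted by flow cytometry for RNA. The Klf4 group received a Klf4 plasmid and the control group a control plasmid, with 4 arrays in each, numbered 2 to 5. Both groups shared the strain, age, electroporation, culture and sort. The labels name no promoter for the plasmids, and they do not say whether arrays of a group came from separate litters or electroporations, so that the p-values rest on variation among the 8 samples, part or all of which may be technical.

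Fibril-forming collagens (types I, V and XI here) build the tensile fibrils of connective tissue, type IV forms the sheet of basement membranes, type VI makes beaded filaments around cells, type XIII is a transmembrane collagen, and type XIV sits on the surface of fibrils. In the eye, the inner limiting membrane, the vessels and the sclera are collagen-rich. Klf4 is a zinc finger transcription factor that binds GC-rich and CACCC-like elements, which is why that motif is marked in the sequences below.

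The 300-base windows around the annotated start are printed for 4 genes that stood higher in Klf4 cells and for 2 common chains beside them. They come from RefSeq on the GRCr8 build, in which 7 of the 10 genes had an entry, and each reads 5′ to 3′ on the strand of its gene. Capitals mark CACCC or its reverse complement GGGTG. The windows lie at chr20:4817599-4817898 (minus strand) for Col11a2, chr20:30466751-30467050 (minus) for Col13a1, chr9:91323528-91323827 (minus) for Col4a4, chr8:27625899-27626198 (minus) for Col5a3, chr4:33518307-33518606 (plus) for Col1a2 and chr16:84885347-84885646 (plus) for Col4a1.
Col11a2: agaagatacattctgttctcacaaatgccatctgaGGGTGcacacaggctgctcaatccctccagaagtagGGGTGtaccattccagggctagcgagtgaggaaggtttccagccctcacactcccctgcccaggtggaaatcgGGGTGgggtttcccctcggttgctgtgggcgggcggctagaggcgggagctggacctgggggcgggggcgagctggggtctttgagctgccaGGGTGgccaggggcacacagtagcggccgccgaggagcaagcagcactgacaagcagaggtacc
Col13a1: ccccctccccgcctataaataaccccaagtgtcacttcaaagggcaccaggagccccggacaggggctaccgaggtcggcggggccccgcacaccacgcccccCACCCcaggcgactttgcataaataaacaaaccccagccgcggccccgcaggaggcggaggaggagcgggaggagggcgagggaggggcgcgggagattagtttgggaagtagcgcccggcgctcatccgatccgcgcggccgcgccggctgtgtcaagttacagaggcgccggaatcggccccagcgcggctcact
Col4a4: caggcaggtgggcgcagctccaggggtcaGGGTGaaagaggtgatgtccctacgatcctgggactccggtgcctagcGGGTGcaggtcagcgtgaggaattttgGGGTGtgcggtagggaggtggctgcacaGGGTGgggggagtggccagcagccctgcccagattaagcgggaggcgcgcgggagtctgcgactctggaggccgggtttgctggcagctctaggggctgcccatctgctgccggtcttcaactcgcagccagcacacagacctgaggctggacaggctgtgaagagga
Col5a3: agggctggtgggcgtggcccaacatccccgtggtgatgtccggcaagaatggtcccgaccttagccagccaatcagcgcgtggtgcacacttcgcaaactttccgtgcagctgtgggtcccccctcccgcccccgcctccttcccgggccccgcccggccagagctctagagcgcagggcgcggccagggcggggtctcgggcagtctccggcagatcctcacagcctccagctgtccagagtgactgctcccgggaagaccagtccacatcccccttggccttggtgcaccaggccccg
Col1a2: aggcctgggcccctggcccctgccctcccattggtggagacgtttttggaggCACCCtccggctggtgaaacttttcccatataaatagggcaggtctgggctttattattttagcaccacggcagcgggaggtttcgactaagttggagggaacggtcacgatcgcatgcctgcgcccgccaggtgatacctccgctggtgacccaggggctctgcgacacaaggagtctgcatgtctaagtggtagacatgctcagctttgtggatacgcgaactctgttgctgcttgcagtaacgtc
Col4a1: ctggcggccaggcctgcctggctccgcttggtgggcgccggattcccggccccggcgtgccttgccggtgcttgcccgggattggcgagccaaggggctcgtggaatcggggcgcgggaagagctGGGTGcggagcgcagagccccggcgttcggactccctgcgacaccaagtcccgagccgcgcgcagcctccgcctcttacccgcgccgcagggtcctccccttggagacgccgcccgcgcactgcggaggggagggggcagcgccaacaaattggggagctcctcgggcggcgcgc

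CACCC, searched on both strands, occurred 4 times in the windows of Col11a2 and Col4a4, 1 time in those of Col13a1, Col1a2 and Col4a1, and not in that of Col5a3. Of 33469 windows of the same length, 54.9% held it, and the median count was 1. GGGCGG, a GC box, occurred 3 times in the windows of Col11a2 and Col5a3 and 2 times in that of Col4a1, and 33.1% of all windows held it. TATAAA occurred in the windows of Col13a1 and Col1a2, against 14.2% of all windows. The start of Col4a1 lies head to head with that of Col4a2, and their windows overlap by 176 bases. A match is a description of letters and says nothing of binding.

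All values are log2 signals relative to the 75th percentile of the array's gene probes, so 0 is that percentile and a difference of 1 is a doubling. The signal of one gene's probe is not set against another gene's as a level of expression. The 75th percentile lay between 2615 and 5304 signal units on the Klf4 arrays and between 2399 and 5370 on the control arrays, and the spots well above background made up 72.1% to 86.5% and 75.2% to 86.4%. All arrays were on 1 slide, with the Klf4 arrays in columns 2 and 4 and the control arrays in columns 1 and 3, so that column and plasmid cannot be told apart. Both arrays numbered 5 were read in a second scan, and on both arrays numbered 4 the scanner software put 1 quality metric out of range. The Klf4 probe averaged -3.00 ± 0.86 on Klf4 arrays and -3.27 ± 0.62 on control arrays (SD, n = 4 each). Its difference was 0.27 (limma adjusted p = 0.916), and since its place relative to the plasmid's insert is not given, it checks no label.

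**Figure D1:**
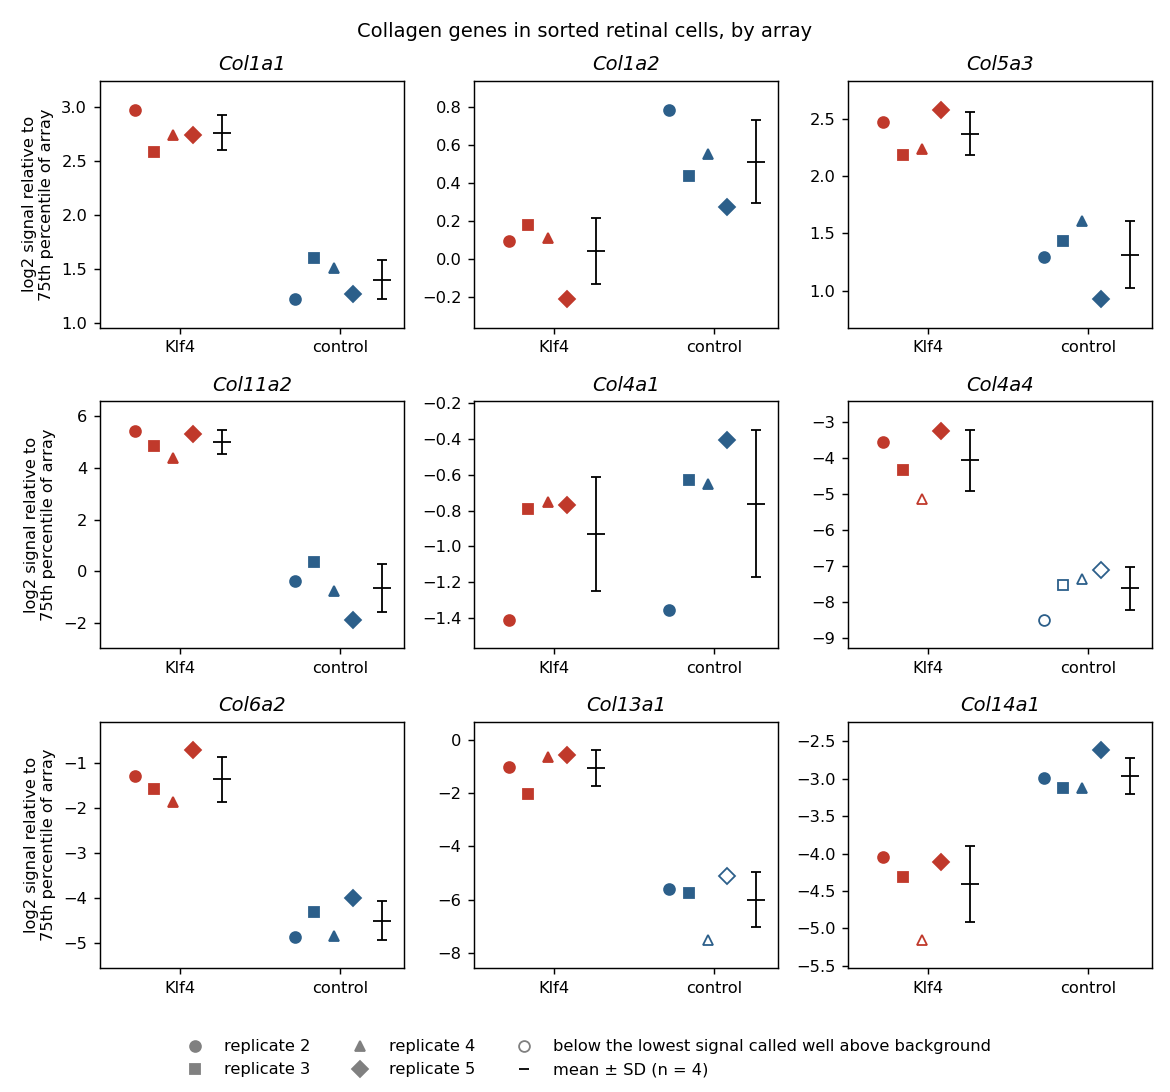
Log2 signal relative to the 75th percentile of each array, for the probe that represents each of the 9 collagen genes, with Klf4 arrays left of control arrays, 1 marker shape per replicate, open markers for signals below the lowest called well above background, and the mean ± SD (n = 4). Col11a2 lies at 4.38 to 5.42 on Klf4 arrays and at -1.87 to 0.34 on control arrays, whereas the Col4a1 groups overlap.

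Col11a2, a chain of the type XI fibril that nucleates cartilage fibrils, showed the widest gap of the 9 genes. Its signal was 5.42, 4.86, 4.38 and 5.31 on the Klf4 arrays, against -0.36, 0.34, -0.77 and -1.87 on the control arrays. The groups did not overlap, and the 4 Klf4 values all lay more than 4 units above the highest control value. The difference was 5.65 (SE 0.45), a 50.3-fold higher signal in Klf4 cells.

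A further Col11a2 probe gave -1.52, -1.63, -4.35 and -1.40 on the Klf4 arrays, against -5.60, -5.81, -6.26 and -2.95 on the control arrays. Here control array 5 stood above Klf4 array 4, so the groups overlapped, and the difference was 2.93. Both probes of Col11a2 were thus higher in Klf4 cells, by amounts that disagree.

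Col1a1 encodes the chain that supplies most of the type I fibril. It had 2.98, 2.59, 2.74 and 2.74 in Klf4 cells, against 1.22, 1.60, 1.51 and 1.27 in control cells. The groups did not overlap, and the difference was 1.36 (SE 0.15), or 2.57-fold. Its other probe gave 1.38. Col1a2, the partner chain of the same trimer, ran the other way, with 0.09, 0.18, 0.11 and -0.21 in Klf4 cells and 0.79, 0.44, 0.56 and 0.27 in control cells. The groups did not overlap here either, although the gap between them was small, and the difference was -0.47 (SE 0.16).

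Col5a3, a minor chain of type V that co-assembles into fibrils, had 2.47, 2.18, 2.24 and 2.58 in Klf4 cells, against 1.29, 1.43, 1.61 and 0.93 in control cells. All Klf4 arrays were above all control arrays, and the difference was 1.05 (SE 0.18). It was 0.85 in the first scan and 1.66 between the arrays of the second.

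**Figure D2:**
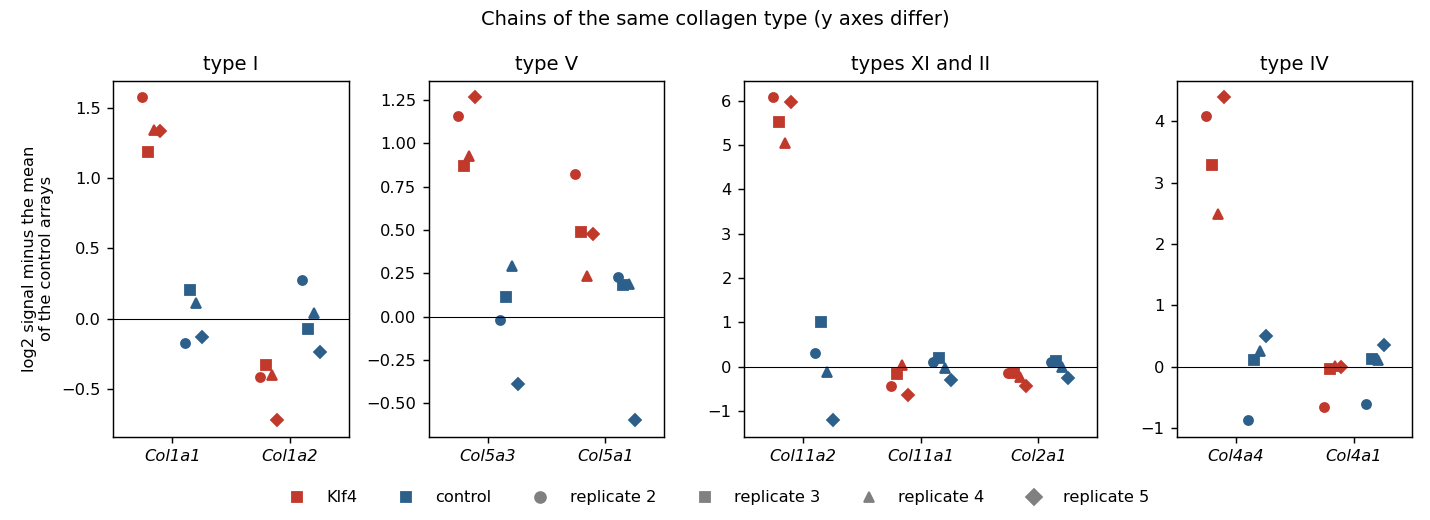
Log2 signal minus the mean of the control arrays for chains of the same collagen type, with Col2a1 of type II beside the type XI chains. Klf4 arrays are in red left of control arrays in blue, with 1 marker shape per replicate and y axes that differ. Signals below background are not marked, and Col4a4 was well above background on 0 of 4 control arrays. Col1a1 lies above and Col1a2 below its control mean on every Klf4 array, and Col4a4 lies above its own while Col4a1 does not separate.

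Of the basement membrane chains, Col4a1 belongs to the widely used type IV network. It had -1.41, -0.79, -0.75 and -0.77 in Klf4 cells, against -1.36, -0.63, -0.65 and -0.41 in control cells. The groups overlapped, and the difference of -0.17 (SE 0.24) was smaller than its error. This probe had 10 spots per array, whose median SD within an array was 0.065.

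Col4a4 is a chain of the specialised network known from kidney glomeruli. It had -3.55, -4.34, -5.14 and -3.24 in Klf4 cells, against -8.50, -7.52, -7.37 and -7.13 in control cells. It was well above background on 3 of 4 Klf4 arrays and on 0 of 4 control arrays. The size is therefore not exact. Signal in Klf4 cells was 3.58-fold higher, taking the lowest well-above-background signal of each control array in place of the probe's own where that was higher. This is no strict bound, since Klf4 array 4, at -5.14, lay below its own lowest well-above-background signal of -4.71. The measured means gave a difference of 3.56 (SE 0.45). Normexp, which handles dim signal otherwise, gave 0.97, less than the 1.84 of that fold on the log2 scale.

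Col6a2, a chain of the beaded type VI filament, had -1.28, -1.58, -1.87 and -0.71 in Klf4 cells, against -4.87, -4.31, -4.86 and -4.00 in control cells. The groups lay apart by more than any spread within them, and the difference was 3.15 (SE 0.29), or 8.88-fold, and 2.12 with normexp. Its 10 spots had a median SD of 0.116 within an array. A further Col6a2 probe was not well above background on any array and was left out.

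Col13a1, the transmembrane collagen of cell junctions, had -1.02, -2.04, -0.62 and -0.56 in Klf4 cells, against -5.62, -5.75, -7.52 and -5.13 in control cells. The groups did not overlap, and the difference was 4.95 (SE 0.54), with only 2 of 4 control arrays well above background, so that it is no exact size; normexp background correction gave 2.66. Col14a1, which coats fibrils, lay lower, with no overlap, as Col1a2 did: it had -4.05, -4.31, -5.16 and -4.11 in Klf4 cells, against -2.99, -3.12, -3.12 and -2.62 in control cells. The difference was -1.44 (SE 0.26), with 3 of 4 Klf4 arrays well above background, and -0.81 with normexp.

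By the limma test with adjusted p under 0.05, 6 of the 9 genes were called higher and 1, Col14a1, lower, where 3.21% of the 29982 features tested were called higher, 0.47% lower and 3.68% in either direction. The groups did not overlap for 6 genes in the higher and 2 in the lower direction, where 5.74% and 4.48% of features did so. The median difference of the 9 genes was 1.36, against -0.07 over all features. Because the genes were chosen from this comparison, nothing is read from these counts. Across the 11 kept probes, Klf4 array 4 was the lowest of its group in 6 and Klf4 array 5 the highest in 6, while control array 5 was the highest of its group in 7 and control array 2 the lowest in 5. Within the first scan (3 arrays a group) and between the single pair of the second, the differences were 5.14 and 7.17 for Col11a2, 1.32 and 1.47 for Col1a1, -0.46 and -0.48 for Col1a2 and -0.11 and -0.36 for Col4a1. They were 3.46 and 3.89 for Col4a4, 3.104 and 3.29 for Col6a2, 5.07 and 4.57 for Col13a1 and -1.42 and -1.49 for Col14a1. Nothing is read from the match of their signs, since the genes were chosen from these same arrays. Col4a4 was not called with normexp, and Col5a3 was not called with the replicate block, without Klf4 array 2 or without control array 2. Col1a2 was called lower with array weights only. Col14a1 was not called in the first scan alone, without Klf4 array 3 or without control array 2. In sorted bulk cells, fewer cells of a type and less RNA per cell cannot be told apart.

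The other collagens are those left after a choice that favoured collagens standing high or low here, so few calls among them follow in part from that choice. Of 14 with a probe, 13 passed the filter, and 0 were called higher and 0 lower by limma, with 2 at an unadjusted p under 0.05, where 11.9% of all features were. Their median difference was -0.17, within a range from -1.29 for Col26a1 to 1.71 for Col15a1, which was well above background on 3 of 4 Klf4 arrays and 1 of 4 control arrays, so that its difference is no exact size. Col16a1, a fibril-associated chain, differed by 0.33 (limma adjusted p = 0.493) and Col9a1, a fibril-surface chain, by 0.10 (adjusted p = 0.917). Col11a1, the partner of Col11a2 in the type XI trimer, differed by -0.29 (limma adjusted p = 0.650), and Col2a1, the chain of the cartilage fibril core, by -0.23 (adjusted p = 0.629). Col5a1, named after its values were seen, differed by 0.51 (SE 0.22, limma adjusted p = 0.416), and its other probe by 1.43. The groups did not overlap on either probe, but on the first the gap was only 0.0085. Without control array 5 the difference of that first probe was 0.31.

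**Figure D3:**
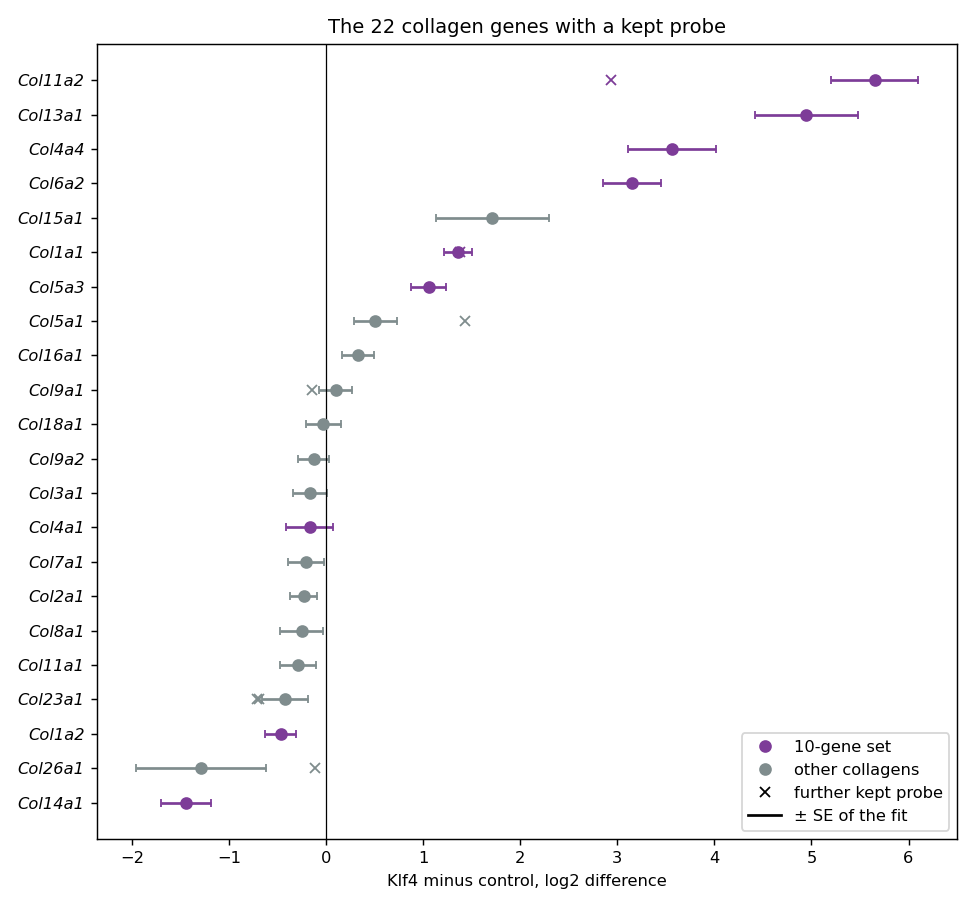
Klf4 minus control log2 difference with its SE for the 22 collagen genes with a kept probe, the described genes in purple and the others in grey, with crosses for further kept probes. Differences run from -1.44 for Col14a1 to 5.65 for Col11a2.

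Genes that mature, anchor, bind or break down collagen were taken from 5 lists. Of 104 listed, 80 had a probe and 64 were tested. Of these, 11 rose and 0 fell by limma, with 21 at an unadjusted p under 0.05 and a median difference of 0.05. Mmp9, among those that rose, passed the filter through its Klf4 arrays alone. Over all features, 3.21% rose, 0.47% fell and 11.9% had an unadjusted p under 0.05. At 0.47%, 0 of 64 falling is near the share of all features. In collagen maturation 2 of 25 rose. Loxl2, a lysyl oxidase that cross-links collagen, rose by 2.06 (SE 0.28, limma adjusted p = 0.00426), with -0.04, -0.44, -0.98 and -0.03 in Klf4 cells and -2.87, -2.46, -2.54 and -1.85 in control cells. Sparc, a collagen-binding matricellular protein, rose by 1.45 (SE 0.24, limma adjusted p = 0.0123), but missed the threshold in the first scan alone (limma adjusted p = 0.0994). The collagen chaperone Serpinh1 differed by -0.04 (limma adjusted p = 0.987), and by -0.28 on a further probe.

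Among basement membrane partners 4 of 13 rose. Laminin chain Lamc3 rose by 2.03 (limma adjusted p = 0.000665), Lama5 by 1.55 (adjusted p = 0.0122), and Agrn, the heparan sulfate proteoglycan agrin, by 0.96 (adjusted p = 0.00716). Lamc1 was the other one, at 0.80 (limma adjusted p = 0.0112), and missed the threshold without control array 2 (limma adjusted p = 0.0507). Lama5 missed it when its probes were averaged (1.09, limma adjusted p = 0.250) and without Klf4 array 2 (limma adjusted p = 0.0507). None of 8 collagen receptors passed, with 2 at an unadjusted p under 0.05, where 11.9% of all features were. The widest difference was 0.76 for Adgrg1 (limma adjusted p = 0.0737).

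In collagen breakdown 2 of 11 rose. Timp2, an inhibitor of matrix metalloproteinases, had 3.66, 3.25, 2.98 and 3.77 in Klf4 cells, against 1.40, 1.41, 1.43 and 1.38 in control cells, a rise of 2.01 (limma adjusted p = 0.000624). Mmp9, a gelatinase, rose by 2.23 (adjusted p = 0.0058 by limma), with 1 of 4 control arrays well above background, so that the size is not exact. Mmp9 passed the filter through its Klf4 arrays alone, so that its p-value is no support for a rise. With normexp background correction its difference was 0.77 (limma adjusted p = 0.0912).

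Of the fibril organisers 3 of 7 rose. Fn1, the fibronectin that scaffolds collagen deposition, had 3.60, 3.18, 2.69 and 3.93 in Klf4 cells, against -0.04, 0.20, -0.14 and 0.92 in control cells, a rise of 3.12 (SE 0.32, limma adjusted p = 0.000973). Prelp, a leucine-rich proteoglycan that binds collagen, rose by 4.51 (limma adjusted p = 0.000624) on one probe and differed by 1.34 on another. Comp, a pentameric cartilage protein, rose by 1.38 (limma adjusted p = 0.0476) and missed the threshold in 12 of 20 alternatives.

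**Figure D4:**
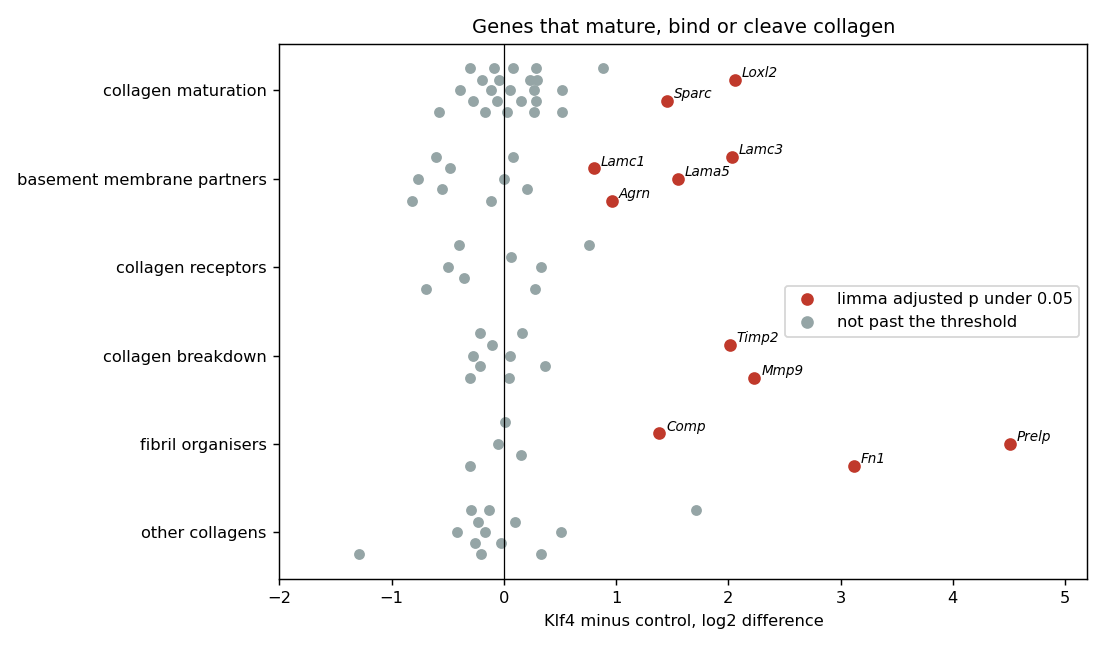
Klf4 minus control log2 difference of each tested gene in 5 lists of collagen-related genes and among the other collagens, in red where the limma adjusted p was under 0.05. The 11 genes that passed all lie above 0, and no other collagen passed. Over all features, 3.21% passed above 0 and 0.47% below.

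Some single markers of other cells rose beside these genes, where 3.21% of all features rose. In the cartilage and sclera list, 3 of 4 tested genes rose: Cnmd, a cartilage glycoprotein, by 4.51 (limma adjusted p = 0.000146), Sox5, a cartilage transcription factor, by 2.18 (adjusted p = 0.00147, with probes from 0.87 to 2.53), and Comp. Summed signal of that list, in multiples of the array's 75th percentile signal, was 4.62 to 6.33 in Klf4 cells and 0.516 to 0.811 in control cells. Cnmd alone made up 3.80 to 4.90 in Klf4 cells and 0.0924 to 0.243 in control cells, and Matn1, a cartilage matrix protein, differed by -0.10 (limma adjusted p = 0.956). Of 8 genes in that list, 6 had a probe. Acan and Hapln1 failed the filter, and Hapln1 was well above background on no array, so that the sum is no measure of the whole list. In the pericyte and fibroblast list 1 of 6 rose, Cspg4 by 1.62 (limma adjusted p = 0.00368). Abcc9, Dcn, Lum and Twist1 were well above background on no array, and the summed signal was 2.85 to 5.38 in Klf4 cells and 3.06 to 4.75 in control cells. In the endothelium list 2 of 6 rose, Tek and Esam, and Esam passed the filter through its Klf4 arrays alone. The sums were 93.8 to 161 in Klf4 cells and 98.96 to 119 in control cells. Kdr alone made up most of each of these sums, and it differed by 0.03 (limma adjusted p = 0.987). Pecam1, Tie1, Cldn5 and Emcn failed the filter, so that the sum is no measure of the whole list. All 12 markers of retinal progenitors and neurons were detected in both groups, with sums of 156 to 283 in Klf4 cells and 226 to 254 in control cells. Otx2 made up most of that sum on each array, and Acta2 most of the pericyte and fibroblast sum. The part of these cells in the collagen differences was not tested.

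The genes whose pattern over the 8 arrays was nearest to that of Col11a2, by root mean square difference of centred log2 signals among 13469 symbols, were Tgfbi (0.212), Rhcg (0.279), Alkal2 (0.349) and Krt1 (0.432). Their differences ran from 5.34 to 6.23. Nearest to Col14a1 were Cacna2d4 (0.216), Esrrg (0.221), Slc1a7 (0.243), Stk32a (0.251) and Npepl1 (0.259), whose differences ran from -1.50 to -0.97. This is a likeness of signal only.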

How the data were processed

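RNA of sorted cells was hybridised to 1-colour Agilent arrays, read with Feature Extraction 10.7.3.1 per the file headers. The intensity values used were the processed signals that the scanner software wrote, already background-subtracted, and the deposited flags (0 or 1) for well above background, outlier and control spots. After removal of control and outlier spots, log2 signals were averaged per probe, and each array's 75th percentile over gene probes was subtracted. A probe had to be well above background on at least 3 of 4 arrays of 1 group, and the probe of highest mean signal among those left stood for its gene. Probe accessions were named through RefSeq (GRCr8): 21109 of 45598 gene probes had 1 symbol and 24489 none. The groups were compared with limma 3.58.1 in R 4.3.3, without covariates, with Benjamini-Hochberg adjustment over 29982 features, two-sided, threshold 0.05; the script was tested on simulated data. The authors' deposited log2 table of 45735 rows, with the same median of 7.54 on each array, served as an alternative. Its steps are not given in the sources used here. Normexp, with offset 50, used the median spot and background signals, since no mean signal was in the files used. The number of arrays limits precision.

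The collagen genes, gene lists and tests were chosen with earlier results of these data known. Named genes outside the 10 were, per list, up to 3 past the threshold with the widest differences in each direction, or the widest where none passed. Among other collagens they were those past the threshold and the 2 of highest signal. Lamc1, Serpinh1, Col11a1, Col2a1, Col26a1, Col15a1 and Col5a1 were named beside them after their values were seen. The 20 alternatives covered background, scaling, filter, probe averaging, array weights, scan, slide row, replicate block and leaving out each array. Markers of astrocytes, pigment epithelium, lens, microglia, ocular surface and red blood cells were also listed.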

Additional observations from a re-analysis of the deposited data

Results flagged for a closer look

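Of the 50 groups of 4 arrays examined, 4 held an array that lay far from the others by Dixon's test, and chance gives about 1 in 20 groups. The further Col11a2 probe had -4.35 on Klf4 array 4, with the other Klf4 arrays at -1.63 to -1.40. Col4a1 had -1.41 on Klf4 array 2, with the other Klf4 arrays at -0.79 to -0.75. Lamc3 had -2.10 on Klf4 array 4, with the other Klf4 arrays at -1.66 to -1.59, and -3.33 on control array 3, with the other control arrays at -3.98 to -3.89.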

How the results depend on the processing

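Of 20 alternatives, 17 kept the count of 962 features higher within 1.5 times, and 8 kept that of 141 lower. The higher count was 1792 with array weights and 635 in the first scan alone, and from 604 (without Klf4 array 2) to 1221 (without Klf4 array 4) on leaving out 1 array. The lower count was 93 with scaling to the array median, 70 with no filter, 1142 with array weights, 255 with scan as a block and 48 in the first scan alone. On leaving out 1 array it ranged from 32 (without control array 2) to 406 (without Klf4 array 4), with 38, 68 and 57 without Klf4 arrays 2, 3 and 5, and 41 and 50 without control arrays 3 and 4. Higher calls were 87.2% of all calls, 61.1% with array weights and 75.05% without Klf4 array 4. Among other collagens, 1 rose when probes were averaged (Col5a1, 0.97, limma adjusted p = 0.0454) and 1 fell with array weights (Col8a1). Of the pathway genes, 9 to 16 rose, while 3 fell with array weights (Itga1, P3h3 and Pxdn) and 1 with scan as a block (Smoc2). Col9a1 turned to -0.0252 with averaged probes and -0.0128 without both arrays numbered 4. Of the 9 collagen genes 5 to 6 were called higher and 0 to 2 lower, with 0 lower in the first scan alone, without Klf4 array 3 and without control array 2. These calls are no support for the differences, since the genes were chosen from these same arrays. Normexp lowered the difference of dim genes, to 2.66 for Col13a1, 0.97 for Col4a4, 2.12 for Col6a2 and -0.81 for Col14a1, and averaged probes gave 4.29 for Col11a2. Limma adjusted p of Comp ranged from 0.0168 to 0.222. Adgrg1 passed in 5 of the 20 alternatives, with a limma adjusted p from 0.00463 to 0.230 over all 20. The cause was not tested. With the replicate block, 841 features rose and 101 fell, with 12 pathway genes and 5 collagen genes higher; same-numbered arrays correlated at 0.06 to 0.55 in their deviations, and 3 of 4 Klf4 arrays correlated best with the control array of their own number, while Klf4 array 4 did so with control array 3. The labels name nothing that a number marks, so whether the numbers pair the samples is not settled.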

Other observations

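Single markers of other cells rose beside the lists described above. Tek, the angiopoietin receptor of endothelium, rose by 2.38 (limma adjusted p = 0.0016). Esam, an endothelial adhesion molecule, rose by 3.35 (limma adjusted p = 0.0099). That is 3.52-fold with the lowest well-above-background signal of each control array in place of the probe's own. Esam was well above background on 3 of 4 Klf4 arrays and 0 of 4 control arrays, so that neither size is exact. It passed the filter through its Klf4 arrays alone, so that its p-value is no support for a rise. Cdh5, the cadherin of endothelial junctions, differed by -0.01 (adjusted p = 0.992 by limma). Of 5 tested astrocyte genes 1 rose: S100b, a calcium-binding protein, by 3.80 (limma adjusted p = 0.0319) on one probe, with 2 of 4 control arrays well above background, and its other probe differed by 1.49. The first of these probes passed the filter through its Klf4 arrays alone, so that its p-value is no support for a rise. The glial filament gene Gfap differed by -0.40 and the glutamate transporter Slc1a2 by -0.46 (limma adjusted p = 0.667 and 0.276). Of 7 tested microglia genes 1 rose: C1qb, a complement subunit, by 1.04 (limma adjusted p = 0.0242). The fractalkine receptor Cx3cr1 differed by -0.23 (limma adjusted p = 0.718), with Ptprc well above background on no array. The photoreceptor factor Crx fell by 0.84 (limma adjusted p = 0.0378), and the neuronal RNA-binding gene Elavl3 rose by 1.09 (adjusted p = 0.0255 by limma). No tested gene of the pigment epithelium (0 of 2), lens (0 of 6), ocular surface (0 of 3) or red blood cell (0 of 4) lists passed the limma test, with 1, 1, 0 and 1 at an unadjusted p under 0.05. Over all features, 3.68% were called in either direction and 11.9% had an unadjusted p under 0.05.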
